A study of Mus musculus with 26 samples.

Results

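The Clca family (chloride channel accessory, once called calcium-activated chloride channel genes) has 7 protein-coding members in the mouse tables, out of 40481 genes. They are Clca1, Clca2, Clca3a1, Clca3a2, Clca3b, Clca4a and Clca4b, taken by gene symbol, and all 7 were found. Their human relatives CLCA1, CLCA2 and CLCA4 were taken in the same way from the 55093 genes of the human table. The family was selected because Clca3b was higher in knockout spheroids, so the spheroid difference between genotypes is given below as a description, and its test outcome is used as support for nothing. Levels in crypts and Caco-2 played no part in that choice.

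Clca proteins were first taken for chloride channels. They are now known as proteins that enter the secretory pathway, are cut by their own protease domain and can raise the surface level of the calcium-activated chloride channel Ano1. Clca1 is an abundant component of intestinal mucus made by goblet cells, where it acts as a protease on the mucus network, and in airways it is a well-known target of IL-13. Clca4a and Clca4b are intestinal members of the family, and Clca2 is best known from skin and other stratified epithelia.

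RNA was sequenced from 3 systems in which Fgfr1op, a gene for a centrosome protein, was deleted or knocked down. Small intestinal spheroids, which are epithelial cultures in Matrigel with L-WRN conditioned medium, came from Fgfr1op KO or WT mice (4 mice each) and were collected on day 3 after 250 nM hydroxytamoxifen. Crypt-enriched cells of the small intestine came from Fgfr1op KO or WT mice after tamoxifen, with 6 libraries of each genotype, 3 from day 6 and 3 from day 9 per the labels. The deposited crypt columns show genotype but not day, so the days were analysed together. Caco-2, a human colorectal adenocarcinoma line, carried an inducible hairpin, either shFgfr1op, which targets the gene, or scramble, which has no target. Each hairpin had 3 libraries, from day 3 after doxycycline. WT and KO mice both received the inducing drug, and both hairpins were induced. The promoter that drives the recombinase, the mouse strain and the age are not given in the sources used here. Whether the Caco-2 libraries are separate cultures is not stated. Their p-values then reflect the spread of those libraries alone, which may be technical.

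Library totals ran from 44152608 to 67630241 counts in spheroids, from 48068740 to 103352863 in crypts and from 37281821 to 50965004 in Caco-2. Fgfr1op had a lower mean in all 3: 17.4 ± 1.98 CPM (counts of a gene relative to the scaled library total) in KO against 23.2 ± 1.12 in WT spheroids (SD, n = 4 each), 21.1 ± 5.22 against 32.9 ± 6.27 in crypts (n = 6 each), and 6.82 ± 0.414 against 15.7 ± 0.208 for FGFR1OP in Caco-2 (n = 3 each). The difference passed the test in crypts (edgeR adjusted p = 0.0261) and in Caco-2 (1.65e-14) but not in spheroids (0.117), where the highest KO library (19.8) was below the lowest WT library (21.7). In crypts the highest KO library (25.9) overlapped the lowest WT library (25.2). Of the crypt libraries, KO numbers 4, 5 and 6 stood apart, with scores of 63.0 to 77.6 on the first principal component against -35.1 to -0.265 for the other 9. The numbers are those of the deposited columns. Whether these 3 are the KO libraries of day 9 is not shown there, so day and this split cannot be told apart. Each crypt result is therefore also given without them where that changes a call or a direction. In spheroids the 18 stem cell markers summed to between 2223 and 2447 CPM and the 7 goblet cell markers to between 136 and 455 CPM. In crypts the goblet markers summed to between 4512 and 11540 CPM, the 10 Paneth cell markers to between 7949 and 86700 CPM and the 14 enterocyte markers to between 4156 and 43270 CPM. The labelled tissue thus showed its epithelial markers in both mouse systems. These are bulk samples, in which fewer cells of a type and less RNA per cell cannot be told apart.

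The 7 genes lie in a row on chromosome 3 (mm10), all on the minus strand, within 369.8 kb that hold no other protein-coding gene. From the end nearest the chromosome start the order is Clca3a1 (144729677 to 144760977), Clca3a2 (144796559 to 144819494), Clca3b (144822623 to 144849357), Clca4b (144910921 to 144932529), Clca4a (144952480 to 144975045), Clca1 (145003817 to 145032776) and Clca2 (145070263 to 145099443). A pseudogene, Clca4c-ps (144861826 to 144896011), sits between Clca3b and Clca4b.

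**Figure D1:**
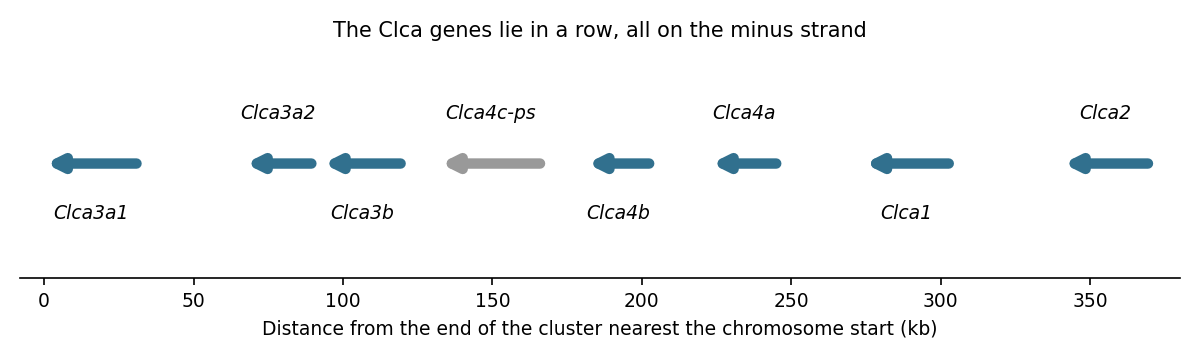
Map of the Clca cluster, with distance in kb on the horizontal axis and arrows pointing in the direction of transcription. The 7 members (blue) and the pseudogene Clca4c-ps (grey) span 369.8 kb.

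Some members are close copies. The coding sequences of Clca3a1 and Clca3a2 were 97.1% identical, those of Clca4a and Clca4b 96.0%, and Clca3b was 86.7% identical to Clca3a2 and 86.6% to Clca3a1. Every other pair lay between 59.6% and 65.5%. Of all 50-base stretches of its transcripts, Clca3a1 shared 23.33% with another Clca transcript, Clca3a2 23.48%, Clca3b 6.68%, Clca4a 37.09% and Clca4b 24.8%, while Clca1 and Clca2 shared 0. The counting of reads that match several genes is not described in the labels, so levels of these 5 genes carry that uncertainty. Antisense genes also overlap Clca3a1 (Gm34866), Clca3a2 (Gm43240) and Clca4a (Gm16233). On the same opposite strand, a processed pseudogene (Gm16215) overlaps Clca3b and a long noncoding RNA gene (Gm35066) overlaps Clca4a. The use of strand in the counting is not described either.

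Short motifs were searched on both strands of the 250 bases before the RefSeq gene start (GRCm38.p6, the assembly of mm10) of 4 members, Clca3a1, Clca3b, Clca4b and Clca2. TTTATG, the core bound by the intestinal CDX factors, was found once in Clca3b (first base at -30 from the start, on chr3:144849303-144849552, minus strand) and once in Clca4b (at -237). It is held by 10.8% of 32851 RefSeq promoter windows of the same length. TATAAA, the core of the TATA box, was found 2 times, both in Clca4b (12.4% of all windows). AGATAA, which GATA factors bind, and CTTTGA, the TCF/LEF core of Wnt targets, were in none of the 4 windows (10.0% and 13.8% of all windows). The RefSeq starts of Clca3b and Clca2 differ from the gene ends given above. The Clca3b window reaches into the gene, which ends at 144849357, and the match at -30 lies in that part. The Clca2 window (145099107 to 145099356) lies wholly inside the gene, which ends at 145099443. A match describes the letters in the window only.

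Levels of different members are compared per length, as CPM per kilobase of annotated exon (RPKM). In WT spheroids Clca3b had by far the highest level, at 86.5 ± 9.15 RPKM (SD, n = 4). Clca4b followed at 10.1 ± 10.5, then Clca1 at 4.24 ± 1.95, Clca4a at 1.32 ± 1.39, Clca3a2 at 0.848 ± 0.0786, Clca3a1 at 0.839 ± 0.171 and Clca2 at 0.0202 ± 0.0112 RPKM. Only the step from Clca3b to Clca4b and the step from Clca3a1 to Clca2 were larger than the spread between libraries. The neighbouring ranks from Clca4b to Clca3a1 overlapped.

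In WT crypts the order was different. Clca1 had the highest mean, at 537 ± 291 RPKM (n = 6), followed by Clca4b at 377 ± 161, Clca3b at 146 ± 51.3, Clca4a at 41.9 ± 19.8, Clca3a2 at 8.20 ± 1.79, Clca3a1 at 2.71 ± 0.286 and Clca2 at 0.136 ± 0.0412 RPKM. Clca1 was above Clca4b in 4 of 6 WT libraries, and the ranges of those 2 genes overlapped, as did those of Clca4b and Clca3b. From Clca3b downwards no neighbouring ranges overlapped. The KO crypts gave the same order of means. The spheroid and crypt tables were fitted and normalized separately, so levels are set side by side and not tested across them.

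**Figure D2:**
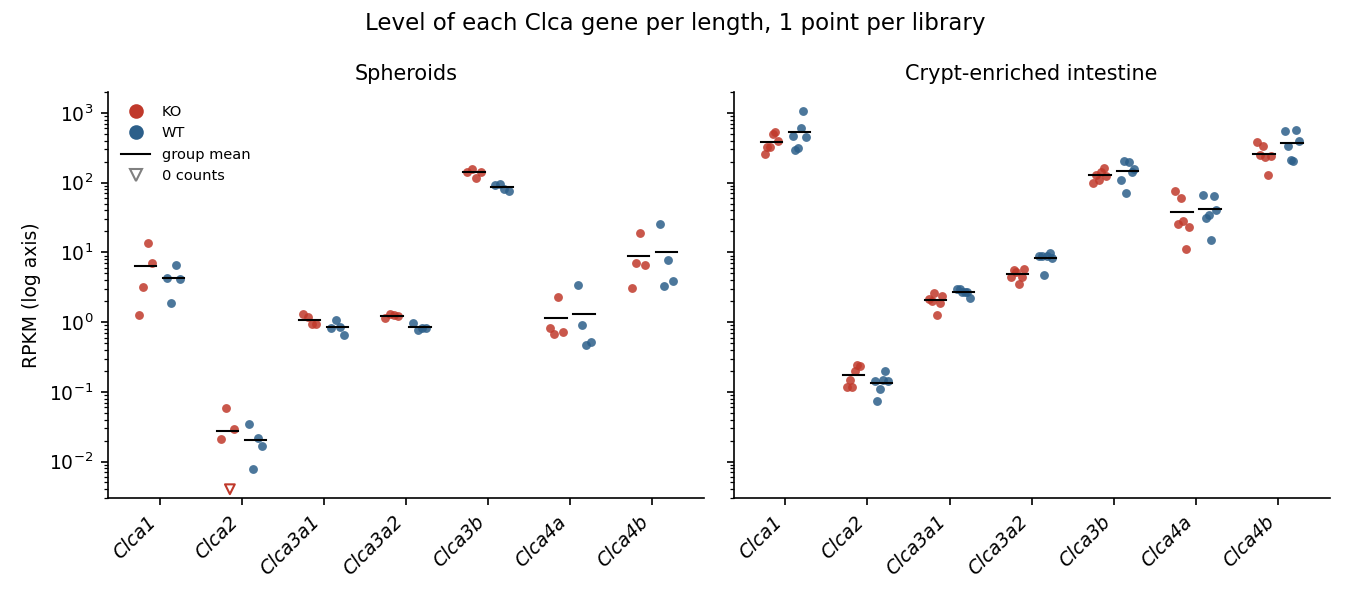
Level of each Clca gene in RPKM (log axis) in spheroids (left, 4 KO and 4 WT libraries) and crypts (right, 6 and 6), with 1 point per library and a line at each group mean; the open triangle is a library with 0 counts of Clca2. Clca3b is far above the other members in spheroids, while Clca1 and Clca4b are highest in crypts.

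The make-up of the family within a library shows the same contrast without reference to the other genes. Clca3b made up between 72.4% and 92.4% of the summed RPKM of the 7 genes in WT spheroids and between 75.9% and 94.9% in KO spheroids. In crypts its share was between 7.51% and 23.3% in WT and between 12.2% and 19.0% in KO. Clca1, the mucus protein, held between 1.82% and 6.80% in WT spheroids but between 33.5% and 59.0% in WT crypts. Clca4b held between 3.17% and 20.2% in WT spheroids and between 19.4% and 45.1% in WT crypts. Together the 7 genes took 0.0294% to 0.0411% of all counts in WT spheroids, 0.050% to 0.0575% in KO spheroids, 0.213% to 0.587% in WT crypts and 0.262% to 0.322% in KO crypts.

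**Figure D3:**
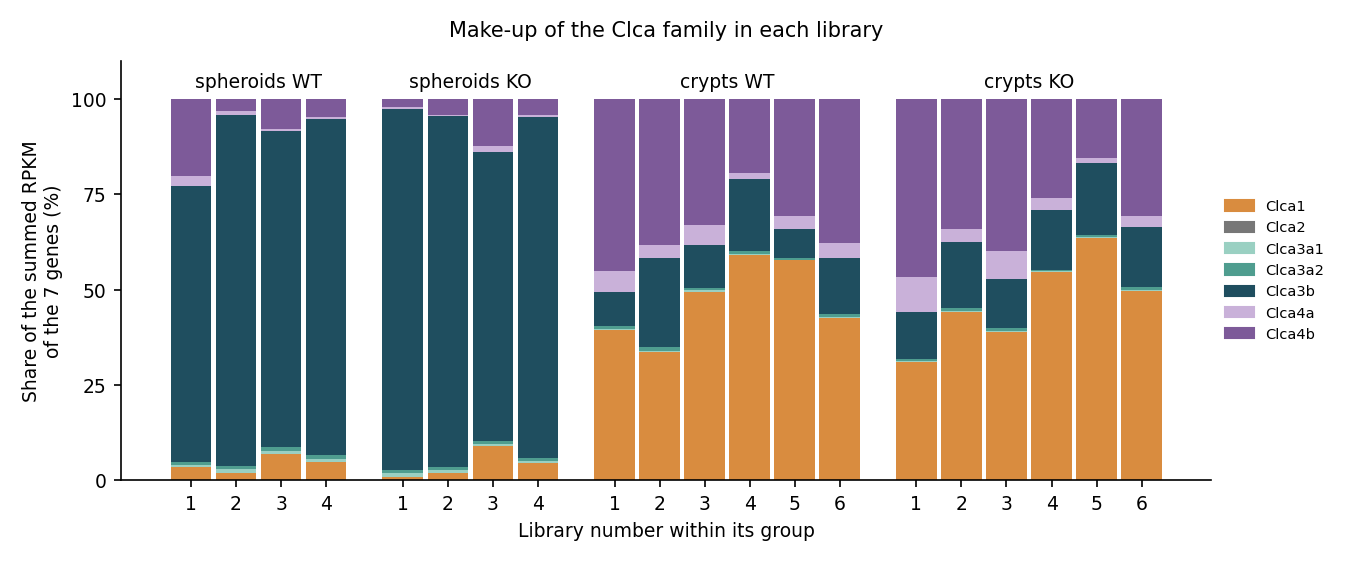
Share of each Clca gene in the summed RPKM of the 7 genes (vertical axis, %), with 1 bar per library, grouped by system and genotype. Clca3b fills 72.4% or more of every spheroid bar, and Clca1 and Clca4b fill most of every crypt bar.

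Clca3b is the member that led to the family being chosen. Its values in spheroids were 481, 534, 393 and 484 CPM in KO libraries 1 to 4 and 308, 324, 274 and 257 CPM in WT libraries 1 to 4. Every KO library was above every WT library. The means were 473 ± 58.6 and 291 ± 30.8 CPM (SD, n = 4 each), a log2 fold change of 0.70 ± 0.10 (standard error, SE). It was the 1 member called of 6 tested, where a call is an adjusted p below 0.05 in edgeR. Among all 15915 genes tested in spheroids 0.232% were called in either direction and 0.189% as higher. Because this contrast chose the family, nothing is read from that count. With 1 library left out the estimate stayed between 0.64 and 0.78, and the call was lost in 7 of 8 cases, the exception being KO library 3.

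Clca3a2, the gene next to Clca3b, had 4.48, 5.16, 5.01 and 4.81 CPM in KO and 3.80, 3.05, 3.31 and 3.32 CPM in WT spheroids. Its groups did not overlap either, with a log2 fold change of 0.53 ± 0.13. Over all genes tested, 4.55% had every KO library above every WT library. Clca3a2 counts amounted to between 0.932% and 1.29% of the Clca3b counts in the 8 libraries, beside the 6.68% of Clca3b stretches shared mostly with Clca3a2. The part of shared reads in the Clca3a2 difference was not tested.

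Clca3a1 overlapped between genotypes in spheroids, with 5.03, 4.62, 3.66 and 3.64 CPM in KO and 3.18, 4.13, 3.28 and 2.50 CPM in WT (log2 fold change 0.37 ± 0.19). The 3 neighbours Clca3a1, Clca3a2 and Clca3b thus had higher means in KO spheroids. So did Clca1 (23.7 against 16.0 CPM in WT) and Clca2 (0.126 against 0.0937 CPM), so a higher mean does not set the 3 neighbours apart. Across the 8 spheroid libraries Clca3b had a Spearman correlation of 0.762 with Clca3a2 and of 0.762 with Clca3a1, given as a description of libraries that share 1 normalization and, for these genes, similar sequence.

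The other members varied widely within a genotype in spheroids. Clca1 had 4.78, 12.1, 51.6 and 26.4 CPM in KO and 16.0, 7.16, 25.2 and 15.7 CPM in WT, so that the KO libraries alone differed up to 10.8-fold. Clca4b, an intestinal member of the family, had 9.36, 20.8, 56.8 and 19.8 CPM in KO and 76.7, 9.91, 23.0 and 11.8 CPM in WT. Clca4a, its near copy, had 2.45, 2.03, 6.94 and 2.20 CPM in KO and 10.2, 2.71, 1.43 and 1.55 CPM in WT. In all 3 the groups overlapped. The log2 fold changes of 0.56 ± 0.70 for Clca1, -0.18 ± 0.81 for Clca4b and -0.20 ± 0.73 for Clca4a were each smaller than their SE. Clca2 had 6, 17, 0 and 7 counts in KO and 7, 2, 7 and 5 counts in WT, which did not pass the filter on low counts. The median log2 fold change of the 6 members tested was 0.45, beside -0.002 over all genes.

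In crypts, whose values were not used to choose the family, Clca3b did not differ detectably between genotypes. The lowest, median and highest libraries were 335, 426 and 538 CPM in KO and 236, 499 and 680 CPM in WT, so that the KO range lay inside the WT range. The log2 fold change was -0.20 ± 0.22, with a 95% interval of -0.68 to 0.28 (edgeR adjusted p = 0.55, exact two-sided permutation p = 0.647). The interval lies below the 0.70 estimated in spheroids, but that value led to the family being chosen and is not a fair benchmark. Whether the effect differs between spheroids and crypts was not tested.

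Clca3a2 fell in KO crypts and was the 1 member called of 7 tested. Its 6 KO libraries had 17.8, 22.4, 20.5, 13.8, 17.9 and 22.6 CPM, with a median of 19.2. The 6 WT libraries had 34.7, 34.8, 18.6, 35.8, 38.7 and 32.9 CPM, with a median of 34.7. All KO libraries were below 5 of the 6 WT libraries, and WT library 3 lay inside the KO range. The means were 19.2 ± 3.37 and 32.6 ± 7.11 CPM (SD, n = 6 each), a log2 fold change of -0.77 ± 0.18 (edgeR adjusted p = 0.00924). The exact two-sided permutation test of that gene gave p = 0.00866, the smallest possible being 0.00216, as 1 of 7 members so tested.

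Among all 16413 genes tested in crypts 24.5% were called, 14.0% as higher and 10.5% as lower. A count of 1 called member in 7 is not above that background. None of the 7 members had all KO libraries below all WT libraries, beside 5.71% of all genes. Without KO libraries 4, 5 and 6 the Clca3a2 estimate was -0.68 ± 0.22 and no longer called (edgeR adjusted p = 0.0765). Leaving out any single crypt library kept the call. Clca3a2 counts were between 2.87% and 5.64% of Clca3b counts in KO and between 5.11% and 9.55% in WT.

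**Figure D4:**
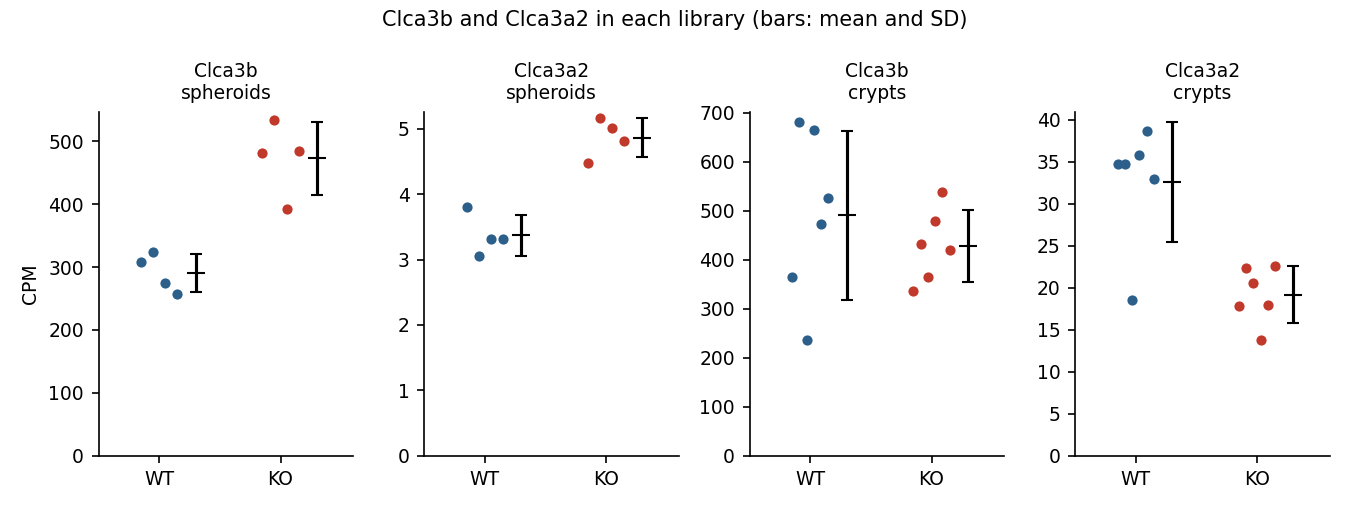
Clca3b and Clca3a2 in CPM (vertical axes, starting at 0) in each WT and KO library of spheroids and crypts, with the mean and SD beside the points. Both genes are higher in all KO spheroids, while in crypts Clca3a2 is lower in KO than in 5 of 6 WT libraries and Clca3b overlaps.

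Cell type markers also differed in level between the crypt groups. The 18 stem cell markers summed to between 894 and 1766 CPM in KO and between 1378 and 2952 CPM in WT, but their members went both ways. Olfm4, the most abundant of them in WT, had 366 ± 416 CPM in KO and 1387 ± 494 in WT (SD, n = 6 each) and did not pass (edgeR adjusted p = 0.179). The 4 stem cell markers that were called all rose: Cd44 by 2.20 ± 0.43 on the log2 scale, Msi1 by 0.83 ± 0.26, Ephb2 by 0.81 ± 0.20 and Ephb3 by 0.79 ± 0.27. The 15 immune markers summed to between 79.8 and 140 CPM in KO and between 86.9 and 179 CPM in WT, with 0 of them absent from all libraries of a group. Of these the macrophage protein Cd68 rose by 1.54 ± 0.45, the integrin Itgam fell by 1.11 ± 0.25, and 13 did not pass. Of these 6 called markers Cd44 alone was called without KO libraries 4, 5 and 6 (1.10 ± 0.28), and the estimate of Cd68 was 0.15 ± 0.26. The median sums of other lists were also lower in KO: 25470 against 49910 CPM for Paneth cell, 13900 against 28390 for enterocyte, 6119 against 7823 for goblet cell and 334 against 520 for enteroendocrine markers. KO enterocyte sums were 35211, 18933 and 31970 CPM in libraries 1 to 3 and 8875, 4156 and 7645 in libraries 4 to 6. Without KO libraries 4, 5 and 6 the KO enterocyte median (31970 CPM) was thus above that of WT. The other medians named here stayed lower in KO, that of enteroendocrine markers only slightly (517 against 520 CPM). Across the 12 crypt libraries Clca3a2 had a Spearman correlation of 0.741 with the stem cell sum, 0.776 with the immune sum, 0.301 with the Paneth and the goblet sums, 0.28 with the enterocyte sum and 0.147 with the enteroendocrine sum. Without KO libraries 4, 5 and 6 the stem cell and immune values were 0.767 and 0.917. The Paneth, goblet, enterocyte and enteroendocrine values then changed sign, to -0.0833, -0.0667, -0.117 and -0.383. The tuft, fibroblast and muscle, blood endothelial and lymphatic endothelial sums had 0.385, 0.196, 0.133 and 0.615 over the 12 libraries. Without KO libraries 4, 5 and 6 they had 0.75, 0.733, 0.567 and 0.767, so high values were not particular to stem cell and immune markers. The part of these cells in the Clca3a2 difference was not tested.

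Clca3a1 had lowest, median and highest values of 4.88, 8.08 and 10.3 CPM in KO crypts and 8.63, 10.6 and 11.8 CPM in WT crypts. The log2 fold change of -0.40 ± 0.17 did not pass (edgeR adjusted p = 0.103), while the exact two-sided permutation test of the gene alone gave p = 0.013. It passed without KO library 3, with an estimate of -0.52 ± 0.18 (edgeR adjusted p = 0.0426).

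The abundant crypt members did not pass the test. Clca1 ranged from 962 through a median of 1351 to 2022 CPM in KO and from 1098 through 1745 to 4079 CPM in WT, with a log2 fold change of -0.47 ± 0.30 (95% interval -1.12 to 0.17, edgeR adjusted p = 0.266). Clca4b ranged from 390 through 738 to 1150 CPM in KO and from 605 through 1097 to 1727 CPM in WT, with -0.52 ± 0.30 (-1.17 to 0.12, adjusted p = 0.214). In both genes the KO and WT ranges overlapped. Both intervals run from a fall of more than 1 on the log2 scale to a rise of at most 0.17.

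Clca4a ranged from 33.3 through 80.9 to 228 CPM in KO and from 45.4 through 112 to 201 CPM in WT, with a log2 fold change of -0.17 ± 0.46 (95% interval -1.16 to 0.83, edgeR adjusted p = 0.819). Clca2, the member of lowest level, ranged from 34 to 101 counts per library in KO and from 31 to 50 in WT (0.38 ± 0.30, edgeR adjusted p = 0.366). Both estimates changed sign without KO libraries 4, 5 and 6, to 0.37 for Clca4a and -0.097 for Clca2, and that of Clca4a also without KO library 5 alone (0.026). Of the 7 estimates 6 were below 0 and 1 above, and their median was -0.40, beside 0.055 over all genes tested.

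Within the KO crypts, goblet products went different ways in the 3 libraries that stood apart. Clca1 was 1866, 2022 and 1481 CPM in them and 962, 1219 and 1222 CPM in KO libraries 1 to 3. Zg16, a goblet cell lectin-like protein of mucus, was 923, 753 and 625 CPM in them and 2322, 1242 and 1867 CPM in KO libraries 1 to 3. Tff3 (666, 743 and 614 against 1283, 920 and 1066 CPM) and Spink4 (591, 837 and 536 against 1283, 1382 and 1209) were also lower. Spdef, a transcription factor of secretory cells, was higher in them, as Clca1 was, at 19.1, 33.5 and 27.9 CPM against 12.8, 13.9 and 9.03. The mucin Muc2 overlapped, at 235, 331 and 305 CPM against 294, 218 and 195. Fcgbp and Agr2 overlapped as well. As a share of the 7 summed goblet markers, which do not include it, Clca1 was 37.5%, 34.7% and 32.8% in those 3 libraries and between 11.7% and 19.0% in the other KO libraries. In WT the share ran from 14.4% to 56.4%, so it was not outside the WT range. The top of that range was WT library 5 alone, and the next highest WT share was 29.0% (library 4). This comparison was chosen after the values had been seen and has no test.

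Several members followed summed cell markers across libraries. In spheroids Clca1 had a Spearman correlation of 0.833 with the goblet marker sum and of 0.81 with the enterocyte sum (8 libraries). Clca4b had 0.976 with the enterocyte sum and 0.738 with the goblet sum, so both genes followed both sums there. Clca1 also had -0.905 with the fibroblast and muscle sum, which was between 2.73 and 4.14 CPM in all spheroids. In crypts Clca4a had 0.937 and Clca4b 0.811 with the enterocyte sum (12 libraries), and without KO libraries 4, 5 and 6 these were 0.933 and 0.80. Clca1 in crypts had -0.224 with the goblet sum, unlike its value in spheroids. Its values of largest size in crypts were 0.685 with the fibroblast and muscle sum, 0.678 with the immune sum and 0.671 with the tuft sum. Clca2 in crypts had 0.811 with the summed fibroblast and muscle markers, which fell to 0.65 over the 9 other libraries. Its value of largest size was negative, -0.916 with the enteroendocrine sum, and was -0.817 over the 9 other libraries. Clca3b in crypts had 0.538 with the stem cell sum, and 0.983 over the 9 other libraries. Clca3b also had 0.692 with the tuft sum, 0.573 with the blood endothelial sum and -0.538 with the enterocyte sum. Over the 9 other libraries these were 0.65, 0.517 and -0.567. These values describe libraries that share their normalization and the make-up of each sample, and they carry no p-value.

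**Figure D5:**
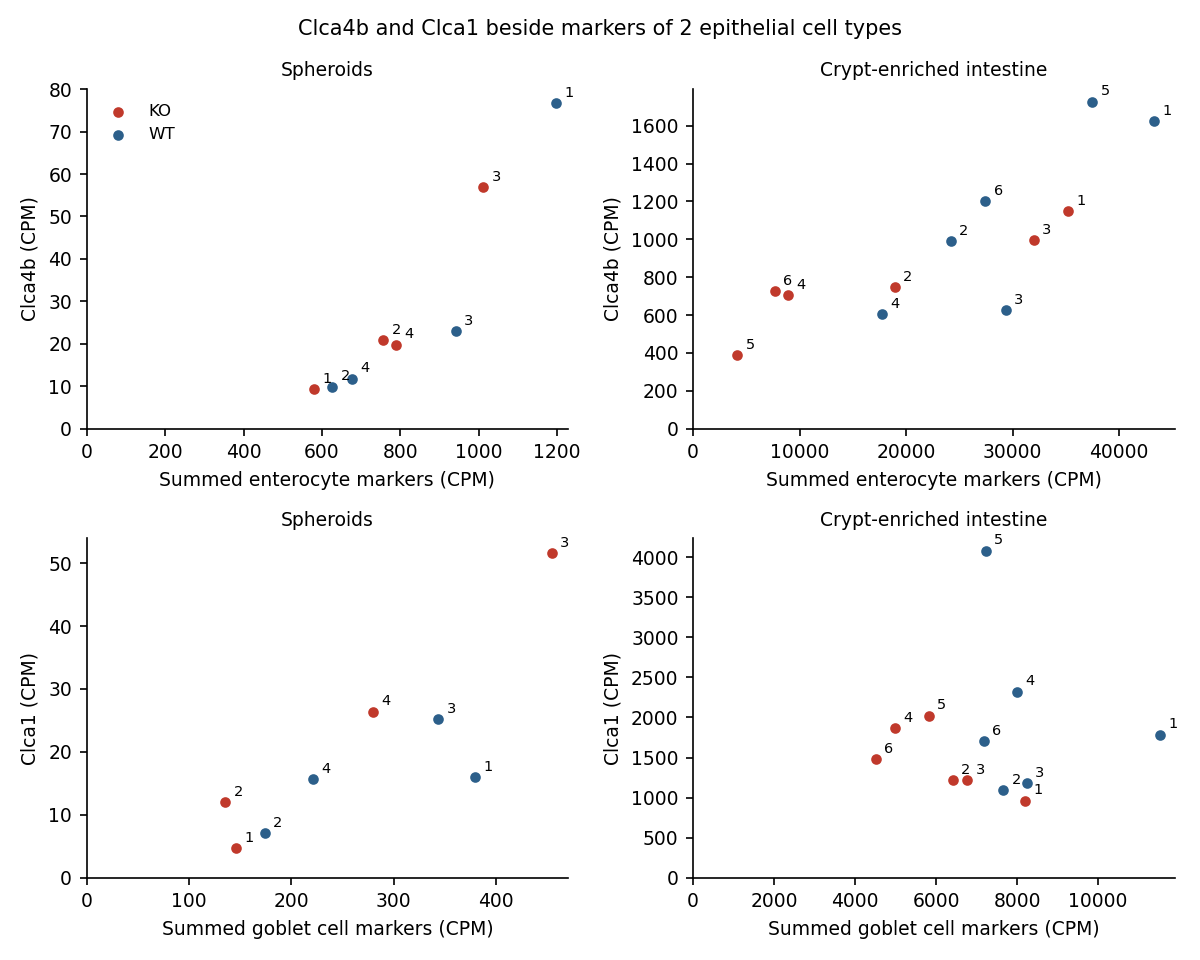
Clca4b against summed enterocyte markers (top) and Clca1 against summed goblet markers (bottom), both in CPM, in spheroids (left) and crypts (right), with 1 point per library numbered within its genotype. Clca4b tracks the enterocyte sum in both systems (Spearman 0.976 and 0.811), and Clca1 tracks the goblet sum in spheroids (0.833) but not in crypts (-0.224).

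The 3 genes most like each member were taken by rank correlation of log2 CPM across libraries. For Clca4b in spheroids they were Chp2, Mttp and Slc13a1, each with a correlation of 1 over 8 libraries. Mttp is the transfer protein that loads lipid onto lipoproteins in enterocytes, and Slc13a1 is a sulfate transporter. For Clca1 in spheroids they were Jmjd8, Reg4 and Tmem115, also at 1, of which Reg4 marks secretory cells of the crypt. For Clca3b in spheroids they were Brms1, Cdc42bpg and Nedd8, also at 1. Over as few as 8 libraries several genes reach that value, and 3 did for each of these 3 members.

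In crypts the genes most like Clca3a2 were Klhl22 (0.951), Gbp7 (0.93) and Irf1 (0.923), of which Gbp7 and Irf1 belong to the interferon response. Those most like Clca2 were Dpysl3 (0.958), Bgn (0.937) and Pcolce (0.937), and the last 2 encode proteins of the extracellular matrix. For Clca4a they were Pmp22 and Rhod (0.979 each) and Tlcd2 (0.965), and Tlcd2 was also among the 3 for Clca4b, with Otud1 and Pcgf5. For Clca1 they were Fbxw17, Ttc33 and Dynlt3, for Clca3b Mcc, Paics and Paip2b, and for Clca3a1 Gmfg-ps, Prr15l and Tmem88b, all between 0.902 and 0.93. Without KO libraries 4, 5 and 6 the values for all 7 members stayed between 0.833 and 1. Clca4a and Clca4b had 0.846 with each other in crypts, and Clca3a1 and Clca3a2 had 0.734.

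Of the 5 protein-coding neighbours within 500 kb of the cluster (Hs2st1, Selenof, Sh3glb1, Odf2l and Col24a1), 1 was called in crypts. Odf2l, which lies next to Clca2 and encodes a centriole-associated protein related to Odf2, rose from 17.8 ± 2.14 CPM in WT to 26.9 ± 5.34 CPM in KO crypts (SD, n = 6 each, log2 fold change 0.59 ± 0.15, edgeR adjusted p = 0.014). That is 1 of 4 tested, beside 24.5% of all crypt genes. Without KO libraries 4, 5 and 6 Odf2l was not called (0.34 ± 0.18, edgeR adjusted p = 0.272). Col24a1 had too few counts to be tested.

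Other genes of the pathways in which the family takes part were taken as lists. In crypts the share of all genes called, beside which the list counts stand, was 24.5% with edgeR, 25.2% with DESeq2, 43.9% with voom, and 5.46% with edgeR without KO libraries 4, 5 and 6. In spheroids it was 0.232%, 3.85% and 0.320% with the 3 tools in that order. Of 22 goblet cell and mucus genes tested in crypts, edgeR called 2 as higher and 3 as lower, DESeq2 called 7 and voom 11. Foxa3 and Spdef, both transcription factors of secretory cells, rose by 1.15 ± 0.29 and 1.13 ± 0.36 on the log2 scale, and Capn9 and Sytl4 fell by 0.52 ± 0.13 and 0.71 ± 0.19. The mucin Muc2 and the mucus proteins Fcgbp and Zg16 did not pass. Without KO libraries 4, 5 and 6 only 1 of the 22 was called, the kallikrein Klk1, which fell by 0.76 ± 0.17, and the estimates of Foxa3 and Spdef were 0.72 ± 0.29 and 0.43 ± 0.34. In spheroids edgeR called 1 of 21 as higher, voom 1 and DESeq2 2. The gene called by edgeR was Sytl2, a factor for docking of secretory vesicles, with a log2 fold change of 0.83 ± 0.14.

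Of 21 genes of anion secretion and its channels tested in crypts, edgeR called 3 as higher and 5 as lower, DESeq2 called 8 and voom 15. The intracellular chloride channel proteins Clic4 and Clic1 rose by 2.01 ± 0.36 and 1.20 ± 0.22 on the log2 scale. Ano9, of the Ano family, and Slc26a3, the apical chloride and bicarbonate exchanger, fell by 0.79 ± 0.18 and 1.07 ± 0.27. Without KO libraries 4, 5 and 6 only 2 of the 21 were called, Clic4 (1.01 ± 0.24) and Clic1 (0.63 ± 0.17), and the estimate of Slc26a3 was -0.68 ± 0.23. In spheroids 0 of 22 were called by edgeR, with 7 at an unadjusted p below 0.05, while DESeq2 called 2 and voom 1.

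Of 13 genes of the IL-13 and IL-4 response tested in crypts, edgeR called 2, both as lower, DESeq2 called 5 and voom 8. The 2 were Pou2f3 (-1.84 ± 0.50) and Dclk1 (-1.79 ± 0.53), both of which mark tuft cells. Without KO libraries 4, 5 and 6 only 1 of the 13 was called, Dclk1 (-1.04 ± 0.27). In spheroids 0 of 11 were called by edgeR, with 2 at an unadjusted p below 0.05, and 0 by DESeq2 or voom. The median log2 fold changes of the 3 lists in crypts were -0.32, -0.35 and 0.09, beside 0.055 over all genes tested. Without KO libraries 4, 5 and 6 they were -0.22, -0.20 and -0.30, so that of the IL-13 and IL-4 list changed sign.

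In Caco-2 the human relatives were at or near 0. CLCA1 and CLCA4 had 0 counts in all 6 libraries, which allows up to 0.0589 to 0.0805 CPM in each (3 counts, for counting error only). CLCA2 had 0, 2 and 2 counts in scramble and 2, 0 and 0 counts in shFgfr1op. None could be tested, so the effect of the hairpin on these genes was not detectable at this depth. Over all 18905 genes tested in Caco-2, 31.9% were called. Of the goblet cell and mucus genes 17 were tested, of which 3 rose and 9 fell. AGR2, a chaperone of mucin folding, and SYTL2 fell by 0.81 ± 0.04 and 0.79 ± 0.04 on the log2 scale, and CAPN9 and SYTL4 rose by 2.39 ± 0.33 and 1.22 ± 0.24.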

How the data were processed

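The authors deposited 1 table of whole-number read counts per gene for each of the 3 systems (26 libraries). Tools named in the submitters' processing notes are STAR and DESeq2, with build mm10 and no versions. The human build is not described there. Entries that repeated an identifier were removed (276 in each mouse table, 116 in the human table), and all per-sample columns were mapped. Crypt columns were assigned by genotype. Replicates were compared pairwise by a chi-square statistic, which was at least 3.98 per degree of freedom, so no library was counted as a duplicate.

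Each table was fitted with edgeR 4.0.16 (R 4.3.3) by the quasi-likelihood test on the counts as deposited, with filterByExpr, TMM scaling and Benjamini-Hochberg adjustment over all genes tested (15915, 16413 and 18905), a gene being called below 0.05. CPM uses TMM-scaled totals, and RPKM divides by the union of annotated exons in GENCODE M21 (the mm10 assembly). An SE is the size of the log2 fold change divided by the square root of F. Members were also tested singly by an exact two-sided permutation of log2 CPM in crypts. The scripts were tested on simulated data. Motifs were searched in the promoter windows of 4 of the 7 members, from RefSeq GRCm38.p6; those of Clca1, Clca3a2 and Clca4a are not reported here.

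The members and lists were chosen with earlier results of these data known. All members are named, with up to 2 called genes of smallest p in each direction per list, neighbours within 500 kb, and the 3 genes of highest Spearman correlation with each member (log2 CPM, prior count 2, predicted genes left out). Zg16, Muc2, Fcgbp, Tff3, Spink4, Agr2 in crypts, Klk1 and the stem cell and immune markers were named outside that rule, after their values had been seen. Alternatives were RLE size factors, no filter, a filter of 1 CPM, DESeq2 1.42.0, limma 3.58.1 voom with quality weights, the replicate number as a block, each library left out and, added after seeing the data, crypts without KO libraries 4, 5 and 6.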

Additional observations from a re-analysis of the deposited data

Results flagged for a closer look

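Among the members' values, 3 libraries lay far from the rest of their group, where the gap to the nearest library was large against the range of the group. Clca4a was 6.94 CPM in KO spheroid library 3, with the other 3 KO libraries between 2.03 and 2.45. Clca4a was also 10.2 CPM in WT spheroid library 1, with the other 3 between 1.43 and 2.71. The same 2 libraries had the highest enterocyte marker sums of their genotypes (1011 and 1197 CPM) and the highest Clca4b (56.8 and 76.7 CPM). Across all 8 spheroid libraries, however, Clca4a had a Spearman correlation of only 0.286 with the enterocyte sum and 0.262 with Clca4b.

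Clca3a2 was 18.6 CPM in WT crypt library 3, with the other 5 WT libraries between 32.9 and 38.7. The same library had the lowest Clca3b of the WT crypts (236 CPM). Chance flags about 1 in 20 groups if values are normally distributed, which was not tested for these CPM. The check was made in the KO and the WT group of every member tested (6 in spheroids and 7 in crypts). No explanation of the flagged values was tested.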

How the results depend on the processing

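The members called in spheroids (1) became 2 with DESeq2, which added Clca3a2, and 0 to 1 with each library left out; among those fits the call of Clca3b held only without KO library 3, while its estimate stayed between 0.64 and 0.78. All genes called in spheroids (37) became 154 with no filter, 577 with DESeq2, 71 with the replicate block, and 3 to 160 with a library left out. The members called in crypts (1) became 3 with voom, which added Clca2 and Clca3a1, 1 to 2 with a library left out, and 0 without KO libraries 4, 5 and 6. All genes called in crypts (4014) became 7208 with voom and 924 without those 3 libraries. Caco-2 gave 6031 calls and 5162 to 5697 with a library left out.

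Estimates that changed sign were those of Clca4a in spheroids (0.29 with voom, 0.057 with the replicate block, -0.82 to 0.85 with a library left out), Clca4b in spheroids (0.28, 0.22 and -0.86 to 0.84), Clca1 in spheroids (-0.15 to 0.91 with a library left out, the lowest without KO library 3) and Clca4a in crypts (-0.50 to 0.026 with a library left out, and 0.37 without KO libraries 4, 5 and 6). Clca2 in crypts became -0.097 without those libraries. The cause was not tested. The adjusted p of Clca3a2 in crypts ran from 0.00103 to 0.0765 over its alternatives. Same-numbered libraries deviated together little (correlations -0.03 to 0.098 in spheroids and 0.00332 to 0.0437 in Caco-2). In Caco-2, shFgfr1op libraries 1 and 2 correlated best with the scramble library of their own number, while library 3 and all spheroid KO libraries did not. The replicate number is not taken as a pairing, since no label says so. The order of members by mean level in WT was the same with and without length (21 of 21 pairs in each mouse system). In KO spheroids it was not: Clca4a was above Clca3a1 per length (1.13 against 1.09 RPKM) but below it in CPM (3.41 against 4.24). No length was used and no member could be tested in Caco-2, so those alternatives were not run. Crypt columns carry no shared number with a label, so no block was fitted there. At 0 to 17 counts a library, Clca2 in spheroids is limited by depth.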
